A study of Mus musculus with 6 samples.

Results

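Mast cells were followed through 8 genes that mark them, on arrays of visceral fat RNA from obese mice with and without Cre under the Pdgfra promoter. The genes are the granule proteases Mcpt4, Cma1, Tpsb2 and Cpa3, the receptor genes Kit, Fcer1a and Ms4a2, and Hdc, the gene of the histamine-forming enzyme. They are 8 of the 19938 genes that the array annotation names with a single symbol, and each has 1 probeset. They were chosen by the difference in log2 intensity between the genotypes on these same arrays, so their own differences are given as a description, without a test.

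The study asks how heme oxygenase-1 (gene Hmox1), an enzyme that breaks down heme, acts in adipose precursors (APs), the stromal cells of fat that become adipocytes. Hmox1f/f PdgfraCre mice carry Hmox1 with loxP sites around exon 2 together with Cre driven by the promoter of Pdgfra, a gene that APs express, and Hmox1f/f mice carry the floxed gene alone. Per the study's methods all were males on the C57BL/6J background. All had 8 weeks of high-fat diet (HFD) from week 6 of age, and RNA was pooled from 2 mice for each array. Arrays 1 to 3 are Hmox1f/f PdgfraCre and arrays 4 to 6 are Hmox1f/f, 3 per genotype. No control array carried Cre alone, and so effects of Cre itself and of Hmox1 deletion cannot be told apart. The labels describe the material as APs and also as perigonadal visceral fat (viWAT). The study's AP isolation removes cells that carry CD45, as mast cells and macrophages do, or CD31, and then keeps cells with SCA-1.

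Mast cells are long-lived immune cells that mature in tissues under stem cell factor, the ligand of the receptor KIT. Their granules store histamine and proteases on a scaffold of heparin, and cross-linking of IgE on its high-affinity receptor releases them within moments. In fat they sit around vessels and in fibrous strands, and their number in adipose tissue is known to go up in obesity.

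Values are log2 of the deposited intensity. Each array had 10849 to 11108 genes above 7, and the 11024 genes above 7 on at least 3 arrays were tested with limma. None of these (0 genes, 0.00%) passed an adjusted p of 0.05, while 1740 (15.8%) had an unadjusted p under 0.05, 1406 of them lower and 334 higher with Cre. The split was 1010 lower and 609 higher after a further quantile normalization, and 1571 lower and 290 higher with arrays centred on their median. Hmox1 measured 11.25, 11.36 and 10.74 with Cre, against 11.90, 11.63 and 12.32 without. The precursor gene Pdgfra averaged 10.17 with Cre and 10.34 without, and the adipocyte gene Adipoq 13.01 with Cre and 12.81 without, so markers of both APs and adipocytes were bright on the arrays. The macrophage gene Cd68 averaged 12.66 with Cre and 13.01 without, and the endothelial gene Pecam1 10.48 with Cre and 10.16 without. Genes of cells that the AP isolation removes were thus bright too, and the labels do not settle which material was hybridised. Epididymal genes stood out on single arrays, with Lcn5 at 12.21 on Hmox1f/f PdgfraCre 1 and Gpx5 at 10.33 on Hmox1f/f 6, so the mast cell values are also given without that pair of arrays. The germ cell gene Prm2 was at 9.42, 7.48 and 9.87 with Cre, against 8.51, 10.41 and 12.54 without. Leaving out the pair therefore does not clear such genes from the arrays that stay in. Precision is limited throughout by the number of arrays.

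The 4 granule proteases were lower in Hmox1f/f PdgfraCre than in Hmox1f/f, by 1.74-fold to 2.25-fold, and on each of them all 3 arrays with Cre lay below all 3 without. Fcer1a was lower in the same way at a dim signal, whereas Kit was nearly level and Hdc overlapped between the genotypes. Ms4a2 overlapped too, at a signal too dim for a difference to be detectable. In bulk RNA, fewer mast cells and less mast cell RNA per cell cannot be told apart. In all, 5 of the 8 genes did not overlap between the groups, 4 of them among the 5 that passed the filter. Of all tested genes, 57.4% were lower with Cre, 21.2% had their arrays with Cre all below those without and 5.82% had them all above. This contrast chose the genes, so nothing is read from their share.

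Mcpt4 encodes a chymase, a chymotrypsin-like protease of connective tissue mast cells. Its log2 intensity was 7.92, 8.34 and 7.48 on the Hmox1f/f PdgfraCre arrays, against 8.81, 8.91 and 9.53 on the Hmox1f/f arrays. As deposited intensities these are 242, 324 and 179 with Cre and 448, 481 and 741 without. The highest array with Cre stayed below the lowest control. The group means were 7.91 ± 0.43 with Cre and 9.08 ± 0.39 without (SD, n = 3 each), a difference of -1.17 ± 0.27 (SE), or 2.25-fold. Without Hmox1f/f 6, the highest array, the difference was -0.94.

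Cma1, the second chymase gene, was dimmer. It measured 6.86, 7.06 and 6.25 with Cre, against 7.45, 7.38 and 7.72 without. It was above 7 on 4 arrays, 1 of them with Cre, so it passed the filter mainly through the controls. The difference was -0.80 ± 0.22 (SE), 1.74-fold lower with Cre. The order of the arrays within each genotype was that of Tpsb2.

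Tpsb2 encodes a tryptase, the trypsin-like protease that mast cell granules hold as a tetramer bound to heparin. It measured 7.48, 7.76 and 7.18 with Cre, against 8.34, 8.24 and 8.84 without. Again the genotypes did not overlap, and Hmox1f/f PdgfraCre 3 was the lowest array and Hmox1f/f 6 the highest. The difference was -1.00 ± 0.21 (SE), 2.00-fold lower with Cre. The neighbouring tryptase gene Tpsab1, which C57BL/6 mice are known to splice defectively, is close to Tpsb2 in sequence, and cross-hybridisation between them was not tested.

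Cpa3 encodes the mast cell carboxypeptidase, which trims amino acids from the C-terminal end of peptides. It measured 8.92, 9.40 and 8.58 with Cre, against 9.99, 9.87 and 9.64 without. All arrays with Cre lay below the controls here too, but among the controls Hmox1f/f 6 was the lowest, whereas it was the highest for the other 3 proteases. The difference was -0.87 ± 0.21 (SE), 1.83-fold lower with Cre. The spread within Hmox1f/f PdgfraCre (SD 0.41) was wider than within Hmox1f/f (SD 0.18, n = 3 each).

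Kit encodes the receptor for stem cell factor, on which mast cells depend for survival. It measured 8.20, 8.11 and 7.98 with Cre, against 8.24, 7.98 and 8.11 without. The arrays of both genotypes were interleaved, and the means were 8.10 ± 0.11 with Cre and 8.11 ± 0.13 without (SD, n = 3 each). The difference of -0.01 ± 0.10 (SE) had a 95% confidence interval of -0.25 to 0.23. Kit is also known from interstitial cells and germ cells. The interstitial cell gene Ano1 was at 8.39, 7.87 and 8.41 with Cre and 8.32, 8.26 and 8.03 without, and the germ cell gene Ddx4 was under 7 on 5 arrays and at 8.07 on Hmox1f/f 6. The part of such cells in the Kit signal was not tested.

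Fcer1a and Ms4a2 encode the alpha chain of the IgE receptor, which binds the antibody, and its beta chain, which amplifies the signal. Fcer1a measured 5.36, 5.21 and 4.95 with Cre, against 5.98, 5.81 and 6.30 without. It did not reach 7 on any array, so it was outside the tested genes, although its arrays separated by genotype with a difference of -0.86 ± 0.16 (SE). Ms4a2 was dimmer still, at 4.32, 4.52 and 4.32 with Cre and 4.46, 4.32 and 4.39 without. At such a level, intensities of 20 to 23 on a scale that starts at 8, a difference in Ms4a2 was not detectable.

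Hdc encodes histidine decarboxylase, which makes histamine. It measured 6.70, 6.81 and 6.73 with Cre, against 7.24, 6.78 and 7.11 without. Hmox1f/f 5 lay within the range of the arrays with Cre, and only the other 2 controls were above 7. The difference was -0.30 ± 0.13 (SE), and -0.20 without Hmox1f/f 4. The plot of each gene by array shows the 5 genes whose groups separate beside the 3 whose groups do not.

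**Figure D1:**
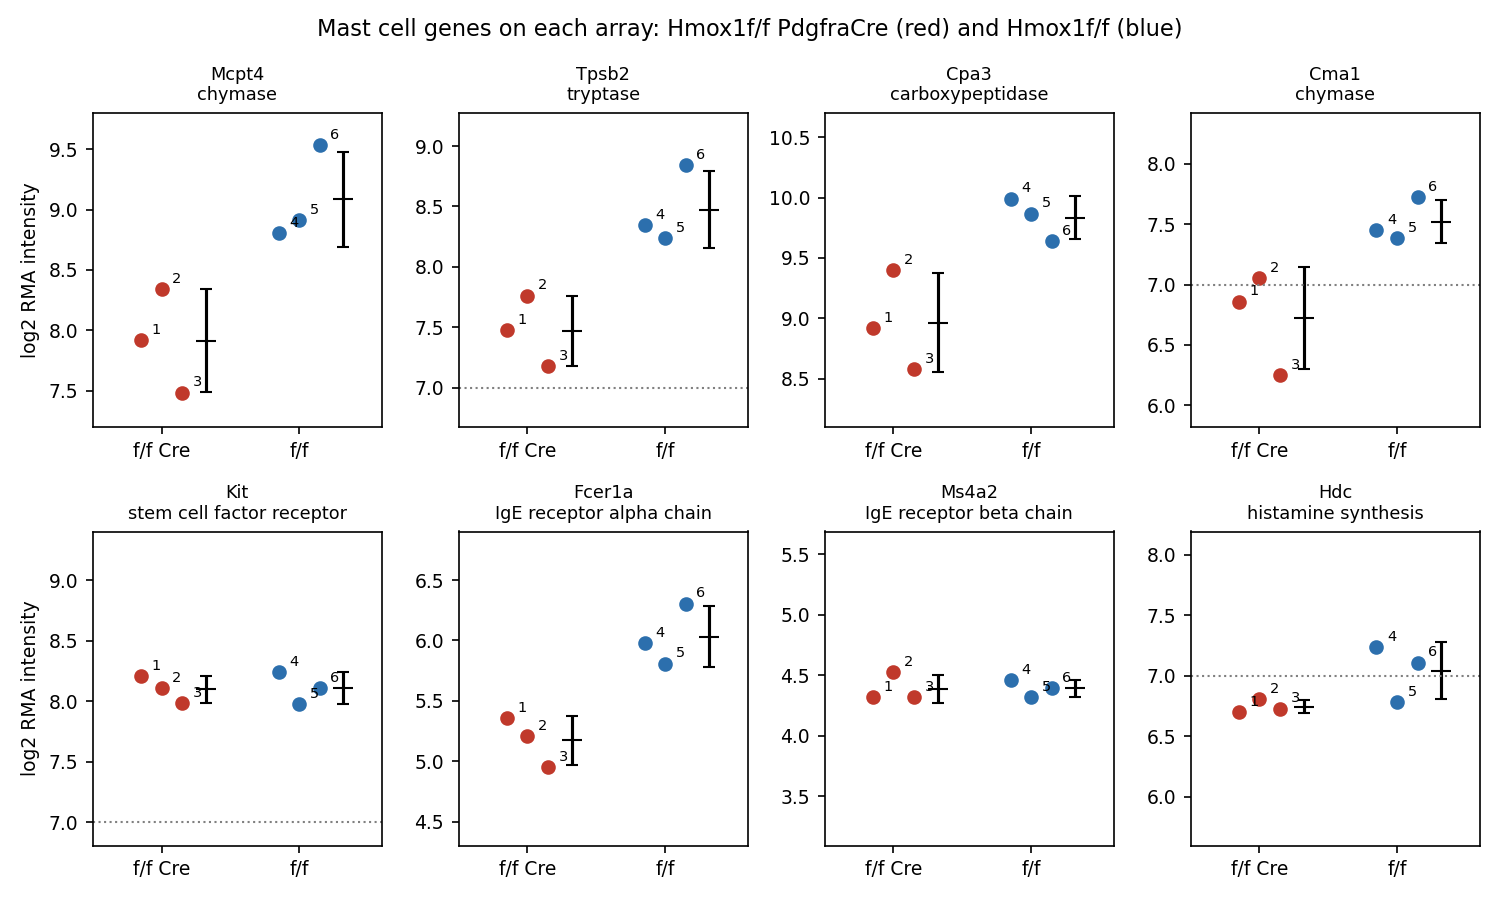
Log2 intensity of the 8 mast cell genes on each array, Hmox1f/f PdgfraCre (red, left) and Hmox1f/f (blue, right), with array numbers, and the mean and SD (n = 3) beside the points. Each panel has its own level with the same span, and the dotted line marks a log2 intensity of 7. Mcpt4, Tpsb2, Cpa3, Cma1 and Fcer1a do not overlap between the groups, while Kit, Ms4a2 and Hdc do.

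With both Hmox1f/f PdgfraCre 1 and Hmox1f/f 6 left out, a setting chosen after seeing the data, the differences were -0.95 for Mcpt4, -0.82 for Tpsb2, -0.94 for Cpa3, -0.77 for Cma1, -0.81 for Fcer1a, -0.06 for Kit and -0.24 for Hdc. The epididymal gene Adam7 was also at 8.93 on Hmox1f/f PdgfraCre 3 and the germ cell gene Prm2 at 10.41 on Hmox1f/f 5. Both arrays stayed in, and the part of epididymal and germ cell carry-over was not tested. Of all tested genes, 28 (0.254%) were at least 2-fold lower with Cre, and from the lowest difference upward Mcpt4 stood at place 20 and Tpsb2 at 28. Cpa3 stood at 42, Cma1 at 53 and Kit at 6055 of 11024. Of the 19 genes lower than Mcpt4, 3 are predicted genes or clones. The other 16 were led by Adam5 (-1.85 ± 1.11), Fabp9 (-1.74 ± 1.03) and Ptgs2 (-1.73 ± 1.53), whose SE were above that of Mcpt4. The rest of them were Prm1, Ldhc, Tnp2, Serpinb9b, Prm2, Clec4d, Oaz3, Lelp1, Phf7, Txndc2, Atp8b3, Smcp and Lrrc46, among which the protamine and transition protein genes are known from sperm formation. Only Serpinb9b (-1.62 ± 0.43) and the macrophage gene Clec4d (-1.48 ± 0.37) among the 16 had an SE under 0.50.

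The sequence before the transcription start is shown for the proteases other than Tpsb2, which had no window, and for Fcer1a and Kit. The windows are the 250 bases upstream of the first start listed for a gene in RefSeq, build GRCm38.p6. They are printed along the gene's strand, and 7 of the 8 genes had one. Capitals mark matches to letters that GATA factors, which drive mast cell genes, are known to bind. Both strands were searched for AGATAA or AGATAG, and for TGATAA or TGATAG. Ms4a2 and Hdc, whose arrays overlapped between the genotypes, also had windows with matches, which are not printed here. The first 4 printed windows belong to genes that were lower with Cre and the last to Kit, which was level. They lie on the minus strand at chr14:56062311-56062560 (Mcpt4), chr14:55944676-55944925 (Cma1), chr3:20242182-20242431 (Cpa3) and chr1:173227230-173227479 (Fcer1a), and on the plus strand at chr5:75574737-75574986 (Kit).
Mcpt4: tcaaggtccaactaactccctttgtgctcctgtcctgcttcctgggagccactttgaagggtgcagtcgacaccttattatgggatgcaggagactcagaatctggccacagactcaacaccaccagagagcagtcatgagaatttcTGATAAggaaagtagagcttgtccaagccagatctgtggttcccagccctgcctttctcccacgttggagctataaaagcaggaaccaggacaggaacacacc
Cma1: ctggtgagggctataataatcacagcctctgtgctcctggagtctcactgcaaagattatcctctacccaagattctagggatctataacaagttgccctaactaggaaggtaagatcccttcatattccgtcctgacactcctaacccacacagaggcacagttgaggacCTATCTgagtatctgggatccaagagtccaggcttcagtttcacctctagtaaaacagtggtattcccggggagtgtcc
Cpa3: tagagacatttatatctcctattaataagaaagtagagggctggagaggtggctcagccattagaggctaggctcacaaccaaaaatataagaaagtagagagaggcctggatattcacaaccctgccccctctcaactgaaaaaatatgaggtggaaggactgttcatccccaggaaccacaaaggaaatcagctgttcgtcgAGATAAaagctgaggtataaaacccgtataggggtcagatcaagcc
Fcer1a: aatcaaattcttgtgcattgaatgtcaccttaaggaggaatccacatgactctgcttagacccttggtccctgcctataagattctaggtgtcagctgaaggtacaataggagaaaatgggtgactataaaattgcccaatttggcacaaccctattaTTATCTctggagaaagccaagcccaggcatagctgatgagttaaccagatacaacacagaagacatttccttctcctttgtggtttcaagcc
Kit: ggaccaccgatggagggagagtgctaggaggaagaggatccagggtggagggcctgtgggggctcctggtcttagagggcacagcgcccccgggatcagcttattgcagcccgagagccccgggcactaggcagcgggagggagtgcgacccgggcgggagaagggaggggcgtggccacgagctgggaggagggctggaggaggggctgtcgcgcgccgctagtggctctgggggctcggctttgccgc

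The match began 103 bases upstream of the start in Mcpt4, 79 in Cma1, 46 in Cpa3 and 92 in Fcer1a. Hdc had 1 match at 221 bases and Ms4a2 had 3, at 224, 37 and 11 bases, and the Kit window had none. So 6 of 7 mast cell windows held at least 1 match, against 27.1% of the 27025 promoter windows of the same length. The windows with a match include those of Ms4a2 and Hdc, whose arrays overlapped between the genotypes. The start listed first was not always the outermost of a gene. The Hdc window, chr2:126618679-126618928, lay inside the gene's span, which ends at 126624025. The Ms4a2, Cpa3 and Fcer1a windows overlapped the ends of their genes' spans. An E-box, searched as CANNTG, was in 4 of 7 windows, against 66% of all promoters. Its form CACGTG, or CATGTG on either strand, which MITF and related factors bind and which is counted among the E-boxes too, was in 1 of 7, that of Fcer1a, against 17.6% of all. A match of letters is a description and not a bound site.

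To describe the proteases over the 6 arrays, the mean of each gene over the arrays was subtracted, and the 4 proteases were averaged. This protease mean was -0.46, -0.11 and -0.87 on Hmox1f/f PdgfraCre 1, 2 and 3, against 0.40, 0.35 and 0.69 on Hmox1f/f 4, 5 and 6. Within Hmox1f/f PdgfraCre, array 2 was highest and array 3 lowest for each of the 4 proteases. Fcer1a shared the low position of array 3 but was highest on array 1. The distance of each gene from the protease mean, as the root mean square over the 6 arrays, was 0.10 for Cma1 and for Tpsb2, 0.17 for Mcpt4, 0.21 for Cpa3 and 0.52 for Kit. Choosing genes for a shared gap between the genotypes fixes much of this likeness.

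The mean of 22 macrophage markers, treated in the same way, was -0.27, 0.02 and -0.47 with Cre, against 0.26, 0.21 and 0.25 without. The order of the arrays with Cre was that of the proteases, whereas Hmox1f/f 6 was no higher than Hmox1f/f 4 for macrophages. The median difference of the 22 markers was -0.43. All of them were lower with Cre, against 57.4% of all tested genes. In 17 of them the arrays with Cre lay all below the controls, against 21.2% of all tested genes. No macrophage marker passed the adjusted threshold in limma (smallest adjusted p = 0.266). An unadjusted p under 0.05 was seen in 15, all lower, against 12.8% of all tested genes in that direction. The 3 largest differences among macrophage markers were Clec4d, Trem2 (-0.73 ± 0.26) and Fcgr3 (-0.69 ± 0.18), and no marker was under the filter. The protease mean differed by -0.96 between the genotypes and the macrophage mean by -0.48. The protease mean minus the macrophage mean was -0.18, -0.13 and -0.41 with Cre, against 0.14, 0.14 and 0.44 without. The proteases were chosen for their gap between the genotypes, and the macrophage list was written with earlier results of these data known. Nothing is therefore read from the protease mean minus the macrophage mean. The part of macrophages or other CD45 carrying cells in the protease differences was not tested.

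**Figure D2:**
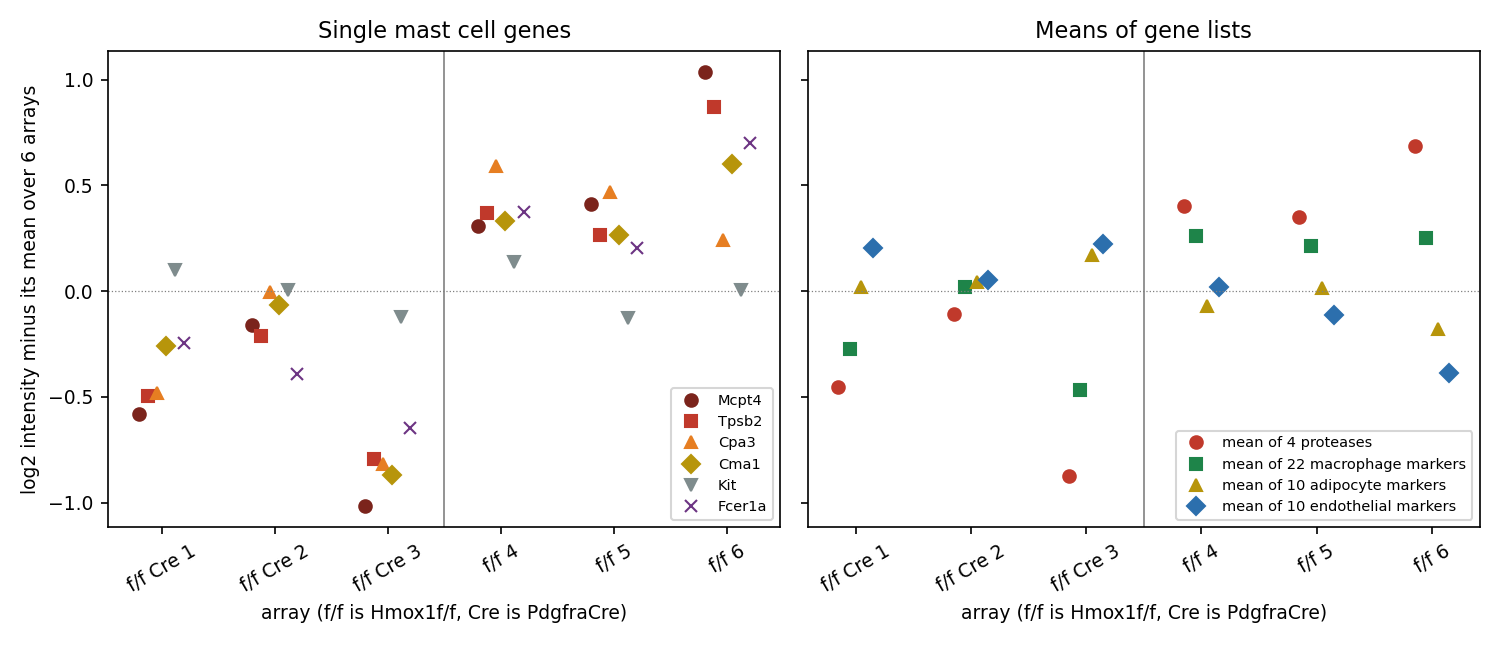
Log2 intensity minus the mean over all 6 arrays, for single mast cell genes (left) and for means of gene lists (right), with Hmox1f/f PdgfraCre arrays left of the line and Hmox1f/f arrays right of it. The protease mean is lowest on Hmox1f/f PdgfraCre 3 (-0.87) and highest on Hmox1f/f 6 (0.69), and the macrophage mean spans less (-0.47 to 0.26).

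Of the markers of the cells most like mast cells, few were measured above the filter. Basophils share IgE receptors and histamine with mast cells, and their proteases Mcpt8 (4.81 to 5.09 with Cre, 4.86 to 5.13 without) and Prss34 and their receptor Cd200r3 were under the filter on all arrays. Of the 2 basophil markers tested, Gata2 differed by -0.09 ± 0.10 and Ccr3, an eotaxin receptor also of eosinophils, by -0.55 ± 0.10 (SE). Ccr3 measured 6.48, 6.74 and 6.44 with Cre, against 7.07, 7.12 and 7.12 without, with an adjusted p of 0.266 in limma. It was above 7 on 3 arrays, all Hmox1f/f, so it passed the filter through the group where it was high. The eosinophil granule genes Prg2, Epx and Ear6 were under the filter, and Siglecf differed by -0.01 ± 0.13 and Alox15 by 0.07 ± 0.20 (SE). Of the neutrophil markers only S100a8 was tested (-0.04 ± 0.08), with Mpo, Elane and Ly6g under the filter.

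All 10 endothelial markers were higher with Cre (median 0.34, and 0.21 without Hmox1f/f 6), as were all 10 adipocyte markers (median 0.13). The 6 mesothelial markers tested were lower (median -0.19, with -0.11 without Hmox1f/f 4 and -0.30 without Hmox1f/f 6). Medians were -0.04 over 11 adipose precursor markers, -0.17 over 8 genes of smooth muscle and interstitial Kit cells, and -0.16 over the 2 lymphocyte markers tested. With 1 array left out at a time these ranged from -0.08 to 0.02 for the precursor list, -0.37 to 0.05 for the smooth muscle list and -0.34 to 0.02 for the lymphocyte list, so none of the 3 had a fixed sign. The 3 epididymal and germ cell genes tested had a median of -1.56 (-0.54 without Hmox1f/f 6). No gene of these lists passed the adjusted threshold, and 5 endothelial, 2 adipocyte, 1 mesothelial, 1 adipose precursor and 3 muscle and interstitial genes had an unadjusted p under 0.05. The adipose precursor gene among these, Pi16, was above 7 on the 3 Hmox1f/f arrays alone and passed the filter through them. Of all tested genes, 15.8% had an unadjusted p under 0.05, with 1406 lower and 334 higher with Cre.

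The genes whose array values lay nearest to the protease mean, among tested genes other than the 8, were Cd300lb (root mean square distance 0.06), Ly9 (0.09), Rnf128 (0.09), Ncf1 (0.11), Pla2g7 (0.12), Mamdc2 (0.12), Ccl3 (0.13), Glipr1 (0.13), Creg1 (0.13) and Hk3 (0.14). They differed by -0.70 to -0.93 between the genotypes. Cd300lb, a receptor of myeloid cells, measured 9.08, 9.53 and 8.82 with Cre, against 10.01, 9.91 and 10.24 without. Ncf1, a subunit of the phagocyte NADPH oxidase, measured 10.10, 10.36 and 9.70 with Cre, against 10.72, 10.63 and 11.15 without. Counted with the 8 genes, Cma1 came at place 4 of 11024 and Tpsb2 at 5, while Mcpt4 came at 32 and Cpa3 at 70. The proteases enter the mean they are set against, and likeness over 6 arrays includes the gap between the genotypes. With each genotype's own mean removed, Cma1 came at place 23, Tpsb2 at 133, Mcpt4 at 337 and Cpa3 at 1994.

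Beyond the 8 genes, 87 others were listed by their role in or around mast cells, of which 76 were found and 50 tested. They include growth factors, attractants and targets of mast cell products, which are not markers of mast cells. Of these, 32 were lower and 18 higher with Cre, with a median of -0.16, against -0.03 over all tested genes. None passed the adjusted threshold in limma (smallest adjusted p = 0.266), and 16 were lower and 0 higher at an unadjusted p under 0.05, as were 12.8% of all tested genes in the lower direction. In 17 of the 50 the arrays with Cre lay all below the controls, against 21.2% of all tested genes. Some of the 50, such as Fcer1g, are shared with macrophages, whose 22 markers were all lower with Cre. The part of macrophages in these counts was not tested.

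Among the other granule proteases, Ctsc alone passed the filter. It encodes the peptidase that activates granule proteases and differed by -0.14 ± 0.12 (SE). The chymase genes Mcpt1 (4.00 to 4.09 on all arrays) and Mcpt2, which mark mucosal mast cells, were near the bottom of the scale. Tpsab1 measured 6.19, 6.21 and 6.07 with Cre, against 6.32, 6.34 and 6.39 without, a small gap of -0.20 ± 0.07 (SE) at a dim signal. Gzmb, Ctsg and Tpsg1 were under the filter and overlapped.

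Granule storage and amine loading gave no common direction. Srgn, the core protein of the granule proteoglycan, which many blood cells make, was at 12.80 ± 0.14 with Cre and 12.72 ± 0.04 without (SD, n = 3 each). Cd63, a granule membrane protein exposed when mast cells degranulate, differed by -0.42 ± 0.14, and Ndst2, which sulfates heparin, by -0.19 ± 0.06 (SE). Both did not overlap between the genotypes and had adjusted p of 0.271 in limma. Rab27a differed by 0.10 ± 0.11 (SE). The serotonin synthesis gene Tph1 was lower without overlap (-0.28 ± 0.13), and the amine transporter gene Slc18a2 overlapped (-0.10 ± 0.11). Tph1 and Slc18a2 were under the filter.

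Of the 7 lipid and cytokine mediator genes tested, 6 were lower with Cre (median -0.31). Alox5ap, which presents substrate to the leukotriene-forming enzyme, measured 10.57, 10.82 and 10.36 with Cre, against 11.10, 10.94 and 11.37 without. Tnf, the gene of a cytokine that mast cells can store, overlapped at -0.31 ± 0.18 (SE). Ptgs2, the inducible cyclooxygenase gene, spread from 6.51 to 11.90 over the arrays, so its difference of -1.73 was close to its SE of 1.53. The cytokine genes Il4 and Il13 were under the filter.

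Among other receptors, 5 of 7 tested were lower with Cre (median -0.18). Fcer1g, the gamma chain that completes the IgE receptor and that macrophages share, measured 12.18, 12.44 and 11.96 with Cre, against 12.54, 12.58 and 12.67 without. It therefore did not overlap, like Fcer1a and unlike Ms4a2. Lilrb4a, an inhibitory receptor, differed by -0.43 ± 0.12 and the leukotriene receptor gene Cysltr1 by 0.27 ± 0.25 (SE). The mast cell receptor genes Mrgprb1 (-0.36 ± 0.11, no overlap) and Mrgprb2 (-0.09 ± 0.10, overlap) were under the filter on all arrays.

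Signalling genes downstream of the IgE receptor had 7 of 10 tested at an unadjusted p under 0.05, the most among these 8 lists by role. Of the 10, 8 were lower with Cre, and those 8 did not overlap (median -0.27). The largest differences were in Lat2, an adaptor (-0.66 ± 0.18), Vav1 (-0.58 ± 0.15), and Btk, a kinase (-0.49 ± 0.10). Their adjusted p were 0.266 in limma. Plcg1 was the gene furthest in the other direction, at 0.25 ± 0.13 (SE). Of all tested genes, 12.8% were lower at an unadjusted p under 0.05, and 21.2% had their arrays with Cre all below those without. The 22 macrophage markers were all lower with Cre too, and the part of macrophages in these signalling differences was not tested.

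Of 8 transcription factor genes tested, 2 were lower without overlap, against 21.2% of all tested genes. They were Spi1 (-0.52 ± 0.18), the myeloid factor gene, and Mitf (-0.34 ± 0.10), which is known to act on mast cell protease genes. Their adjusted p were 0.273 and 0.266 in limma, and the part of macrophages in both differences was not tested. Gata2, needed for mast cell identity, was at 7.61, 7.64 and 7.75 with Cre and 7.94, 7.70 and 7.62 without. These overlapped, and the list's median was -0.04. Gata1 was under the filter on all arrays.

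Genes of the surroundings that act on mast cells included Kitl, the gene of stem cell factor. It measured 9.16, 9.41 and 9.60 with Cre, against 9.32, 9.31 and 8.68 without, a difference of 0.29 ± 0.21 (SE) with overlap. Tgfb1 differed by -0.29 ± 0.16 and Il33 by -0.23 ± 0.10 (SE), and both overlapped. The median of the 5 genes tested was 0.07. Among 8 tested targets and receptors of mast cell products the median was 0.10. Hnmt, which inactivates histamine, differed by 0.41 ± 0.20 and Agt, the source of the angiotensin that chymases release, by 0.37 ± 0.22 (SE). Mmp2, a gelatinase whose proform chymase can activate, was the exception without overlap, at 10.38, 10.50 and 10.24 with Cre, against 10.82, 10.71 and 10.98 without, and its adjusted p was 0.266 in limma.

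**Figure D3:**
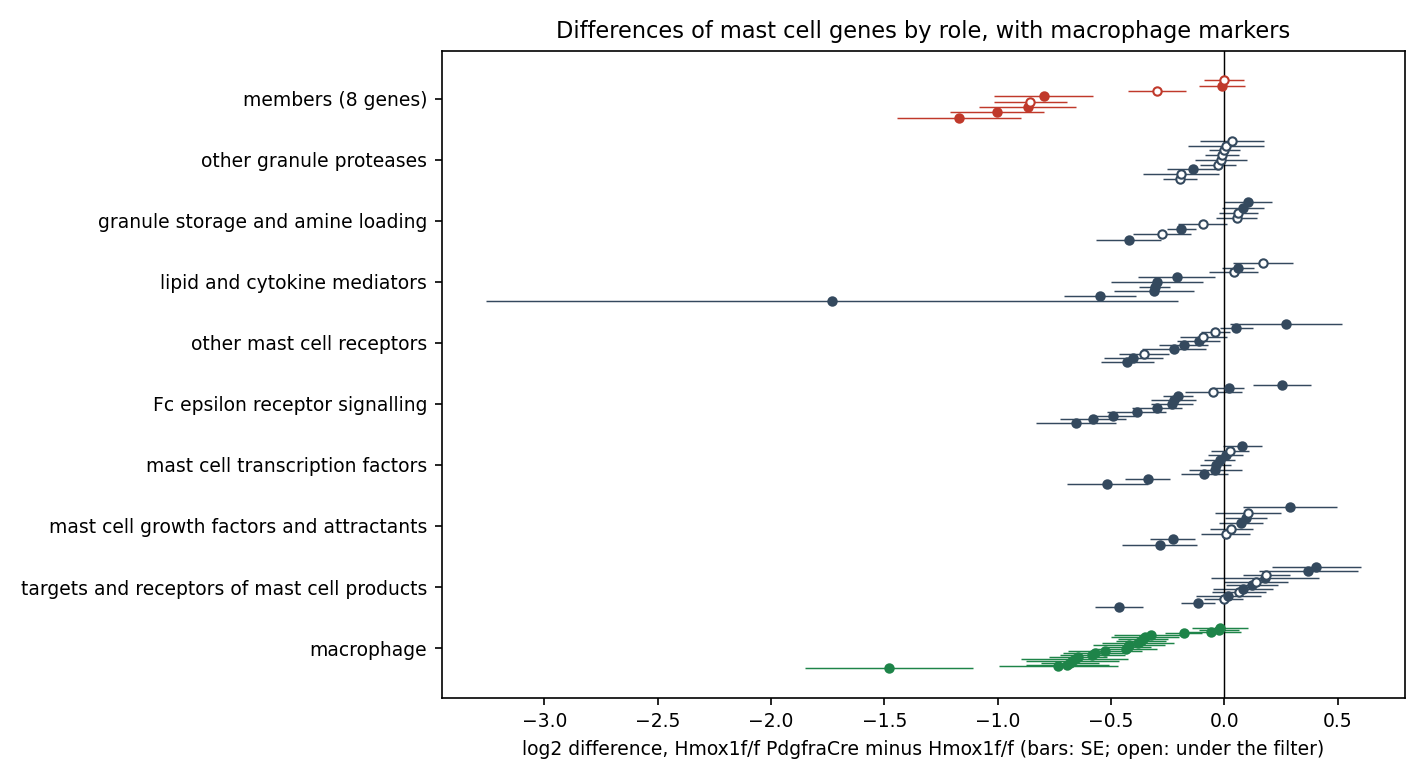
Log2 difference between Hmox1f/f PdgfraCre and Hmox1f/f (horizontal axis, bars are SE) for the 8 mast cell genes (red), other genes by their role in or around mast cells (grey) and 22 macrophage markers (green), each row of points being 1 list. Open points are genes under the filter. The 4 proteases and Fcer1a lie between -1.17 and -0.80, and Kit and Ms4a2 lie near 0, Ms4a2 at a signal too dim for a difference to be detectable.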

How the data were processed

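Affymetrix mouse gene arrays were measured for 3 Hmox1f/f PdgfraCre and 3 Hmox1f/f pools, with 200 ng of RNA labelled each. The authors deposited 1 normalized intensity for each probeset and array, which the submitters' processing notes credit to Affymetrix Expression Console 1.1 and RMA. RMA subtracts background, gives all arrays the same distribution and summarises the probes of a probeset. It shrinks the differences of dim probesets and hides a shift shared by most genes. Of 35556 probesets, 21789 carried 1 gene symbol. The probeset with the highest mean represented each of 19938 genes.

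Log2 values of all genes were fitted with limma 3.58.1 in R 4.3.3 (lmFit and eBayes, two-sided, with genotype alone in the model). Benjamini-Hochberg adjustment covered the 11024 genes above a log2 of 7 on at least 3 arrays. On simulated data of this comparison with 11024 genes, 21, 44, 49 and 49 of 50 genes were recovered at log2 shifts of 0.5, 1, 1.5 and 2, with 7 false calls. The simulated noise was independent between genes and 200 genes were changed. Shifts that many genes share on 1 array were not simulated, so these counts check the code and do not give the power of the real comparison. Nothing in the labels gives a batch.

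The 8 genes and 19 other lists were chosen with earlier results of these data known. Of 206 listed genes, 187 were found and 131 tested, and the others were not analysed here. Besides the 8 genes, the text names the 3 tested genes with the largest difference in the 8 lists by role and among macrophage markers. It also names the tested basophil, eosinophil and neutrophil markers and defining markers under the filter. The 10 genes nearest to the protease mean and the genes lower than Mcpt4, apart from predicted genes and clones, are given too. The lists of other cells were given mainly as medians, without their largest genes. Genes outside this rule (Ano1, Ddx4, Lcn5, Gpx5, Srgn, Plcg1, Pi16 among them) were named after their values were seen. Alternatives were other filters, probeset means, quantile normalization, median centring, trend and robust moderation, arrayWeights, linear intensities, and leaving out arrays. Promoter windows and motifs were read from RefSeq (GRCm38.p6). Plots used matplotlib 3.10.9 under Python 3.11.15.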

Additional observations from a re-analysis of the deposited data

How the results depend on the processing

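The number of genes past the adjusted p in limma was 0 under all 14 alternatives run, with 448 to 2415 genes at an unadjusted p under 0.05, the lowest without Hmox1f/f PdgfraCre 1 and Hmox1f/f 6. Leaving out 1 array at a time gave -1.38 to -0.94 for Mcpt4, -1.15 to -0.82 for Tpsb2, -1.08 to -0.68 for Cpa3, -0.97 to -0.56 for Cma1, -0.97 to -0.72 for Fcer1a, -0.43 to -0.20 for Hdc, -0.08 to 0.06 for Kit and -0.07 to 0.03 for Ms4a2. Thus Kit and Ms4a2 had no fixed sign, and Kit reached 0.10 in another setting. The number of the 8 genes without overlap was 5 or 6. The median difference over all genes was -0.03 as deposited, -0.02 after a further quantile normalization and -0.06 with arrays centred on their median.

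Several medians of lists changed sign, and the cause was not tested. With single arrays left out, the highest values were 0.05 for smooth muscle and interstitial Kit cells and 0.02 for lymphocytes (both without Hmox1f/f PdgfraCre 2), 0.06 for eosinophils and 0.02 for adipose precursors (both without Hmox1f/f 4) and 0.01 for neutrophils (without Hmox1f/f 5), against medians below 0 with all arrays. The neutrophil median was 0.053 without a filter, granule storage 0.054 with the filter at 6, and growth factors and attractants -0.021 with arrayWeights. The median of targets and receptors of mast cell products ranged from -0.00022 (Hmox1f/f PdgfraCre 1 left out) to 0.15 (Hmox1f/f 5 left out) over single arrays, and was -0.015 in the fit that left out the pair of arrays highest in epididymal genes. The median of other mast cell receptors was -0.09 without Hmox1f/f PdgfraCre 3 and -0.06 with arrayWeights. No paired analysis was made, because the labels give no litter or other pairing between the arrays of the 2 genotypes.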
